A study of Mus musculus with 10 samples.

Results

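The genes described here encode peptidases of the intestinal brush border, the transporter Slc15a1 that takes up their products, and chymosin (Cym), a protease listed with them. They were read in the jejunum of mice with and without epithelial Pcyt1a. The 9 genes (Anpep, Enpep, Dpp4, Ace, Mep1a, Mep1b, Naaladl1, Slc15a1 and Cym) were chosen by name, with earlier results of these data known. All 9 were among the 22180 genes measured. Each was read by 1 probe set that the platform annotation assigns to that gene alone. The series holds 10 Affymetrix whole-transcript arrays, 5 from knockout mice of genotype Pcyt1aLoxP/LoxP;VilCreERT2 and 5 from Pcyt1aLoxP/LoxP control mice without Cre. In the knockout the villin promoter drives a Cre recombinase that tamoxifen switches on, so that Pcyt1a, the rate-limiting enzyme of phosphatidylcholine synthesis, is targeted in intestinal epithelium. Both groups were females of 10 to 12 weeks, had tamoxifen for 5 days, and ate high-fat food for 3 days. They then fasted overnight and ate the same food again for 2 hours before 3 cm of jejunum was taken. The controls therefore carried the floxed alleles and had tamoxifen too, and loss of Pcyt1a and an effect of active Cre cannot be told apart. The samples are pieces of whole intestine, in which fewer cells of a type and less RNA per cell cannot be told apart.

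Dietary protein is cut by stomach and pancreatic proteases into short peptides, which enzymes anchored in the microvilli of enterocytes trim further. Aminopeptidases take residues from one end, dipeptidyl and carboxypeptidases take them from their own preferred ends, and endopeptidases such as the meprins cut inside the chain. The resulting di- and tripeptides enter the cell with protons through PEPT1, the product of Slc15a1, and cytosolic peptidases finish their hydrolysis. Many of these genes are expressed unevenly along the small intestine.

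Promoter sequence is shown for 4 members: Cym and Ace, the members with lower mean values in knockout, and Mep1a and Slc15a1, the pair of members with the smallest p for Pearson's r in the correlations described further on. Entries of the RefSeq promoter table (build GRCm38.p6) were used for 7 of the 9 members, and any member entry on a chromosome that was left out is not counted. Each line gives the 250 bases before the annotated start, 5′ to 3′ on the strand of the gene, with capitals for matches to a searched motif.
Cym, chr3:107221733-107221982, minus strand: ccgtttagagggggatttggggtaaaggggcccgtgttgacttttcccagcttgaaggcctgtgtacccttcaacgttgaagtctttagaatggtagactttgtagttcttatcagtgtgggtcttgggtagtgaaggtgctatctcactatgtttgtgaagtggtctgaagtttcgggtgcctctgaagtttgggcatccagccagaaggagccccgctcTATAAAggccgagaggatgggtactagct
Ace, chr11:105967698-105967947, plus strand: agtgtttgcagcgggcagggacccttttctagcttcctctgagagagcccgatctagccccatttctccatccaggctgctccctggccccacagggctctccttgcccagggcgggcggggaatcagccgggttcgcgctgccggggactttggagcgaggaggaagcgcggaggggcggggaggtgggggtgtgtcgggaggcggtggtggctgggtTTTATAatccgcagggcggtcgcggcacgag
Mep1a, chr17:43502774-43503023, minus strand: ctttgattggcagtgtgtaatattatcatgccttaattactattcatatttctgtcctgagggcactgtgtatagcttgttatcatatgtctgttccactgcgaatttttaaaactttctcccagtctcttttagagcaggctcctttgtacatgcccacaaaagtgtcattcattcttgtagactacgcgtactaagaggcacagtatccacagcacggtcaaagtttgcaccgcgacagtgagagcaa
Slc15a1, chr14:121505255-121505504, minus strand: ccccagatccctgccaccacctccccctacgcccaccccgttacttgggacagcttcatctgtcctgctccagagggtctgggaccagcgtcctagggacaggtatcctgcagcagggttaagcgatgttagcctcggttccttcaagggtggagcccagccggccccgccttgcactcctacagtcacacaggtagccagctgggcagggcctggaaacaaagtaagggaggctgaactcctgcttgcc
The motifs searched on both strands, with overlaps allowed, were the TATA box (TATAAA), the CDX motif (TTTATG), the GATA motif (AGATAA), the HNF4 motif (CAAAGTCCA) and the HNF1 palindrome. TATAAA was found in 12.4% of the 32851 windows of the table, TTTATG in 10.8%, AGATAA in 9.99%, CAAAGTCCA in 0.384% and the HNF1 palindrome in 0.00913%. In Cym TATAAA lay on the strand of the gene, 29 to 24 bases before the start, and in the first listed start of Ace on the opposite strand, 31 to 26 bases before it. Mep1a and Slc15a1 held none of these motifs in this window. Outside the sequences shown, Enpep held TATAAA on the opposite strand, 52 to 47 bases before the start. Dpp4 held TATAAA on the strand of the gene, 227 to 222 bases before the start, and AGATAA 32 to 27 bases before it. Enpep and Dpp4 had higher mean values in knockout. A match is only a match of letters.

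The array-wide checks were as follows. Median intensity per array lay between 45.8 and 48.1, which is 5.52 to 5.59 on the log2 scale. Pcyt1a stood at 7.51 ± 0.16 in the 5 knockouts and 9.22 ± 0.20 in the 5 controls (mean ± SD), and no knockout array reached a control array. Villin itself, Vil1, was at -0.02 (SE 0.08, limma adjusted p = 0.954) for knockout minus control. Of 22180 genes, 76 (0.343%) passed the test used throughout, limma with a Benjamini-Hochberg adjusted p under 0.05, 38 higher (0.171%) and 38 lower (0.171%) in knockout. Knockout 1 and control 5 stood apart from the other 8 arrays in some genes of position along the gut, but not in all. Tmprss15, which encodes the duodenal protease enteropeptidase, was at 8.66 in knockout 1 and 7.51 in control 5 on the log2 scale, against 4.28 to 4.67 in the other 8. The counts of called members and of called related genes are also given without these 2 arrays, a fit in which 186 of all genes passed.

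Among the 9 members, 1 passed the test, Cym, which fell in knockout, and 8 did not pass. Over all genes 0.343% were called. The members were chosen with earlier results of these data known, so the count of 1 in 9 cannot be read against that share as a test. Higher mean values in knockout were found for 7 members and lower for 2, with a median difference of 0.09 on the log2 scale, against -0.00 over all genes. Differences of the 8 that did not pass ran from -0.30 for Ace to 0.27 for Mep1a. Without knockout 1 and control 5 the count was again 1, Cym.

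**Figure D1:**
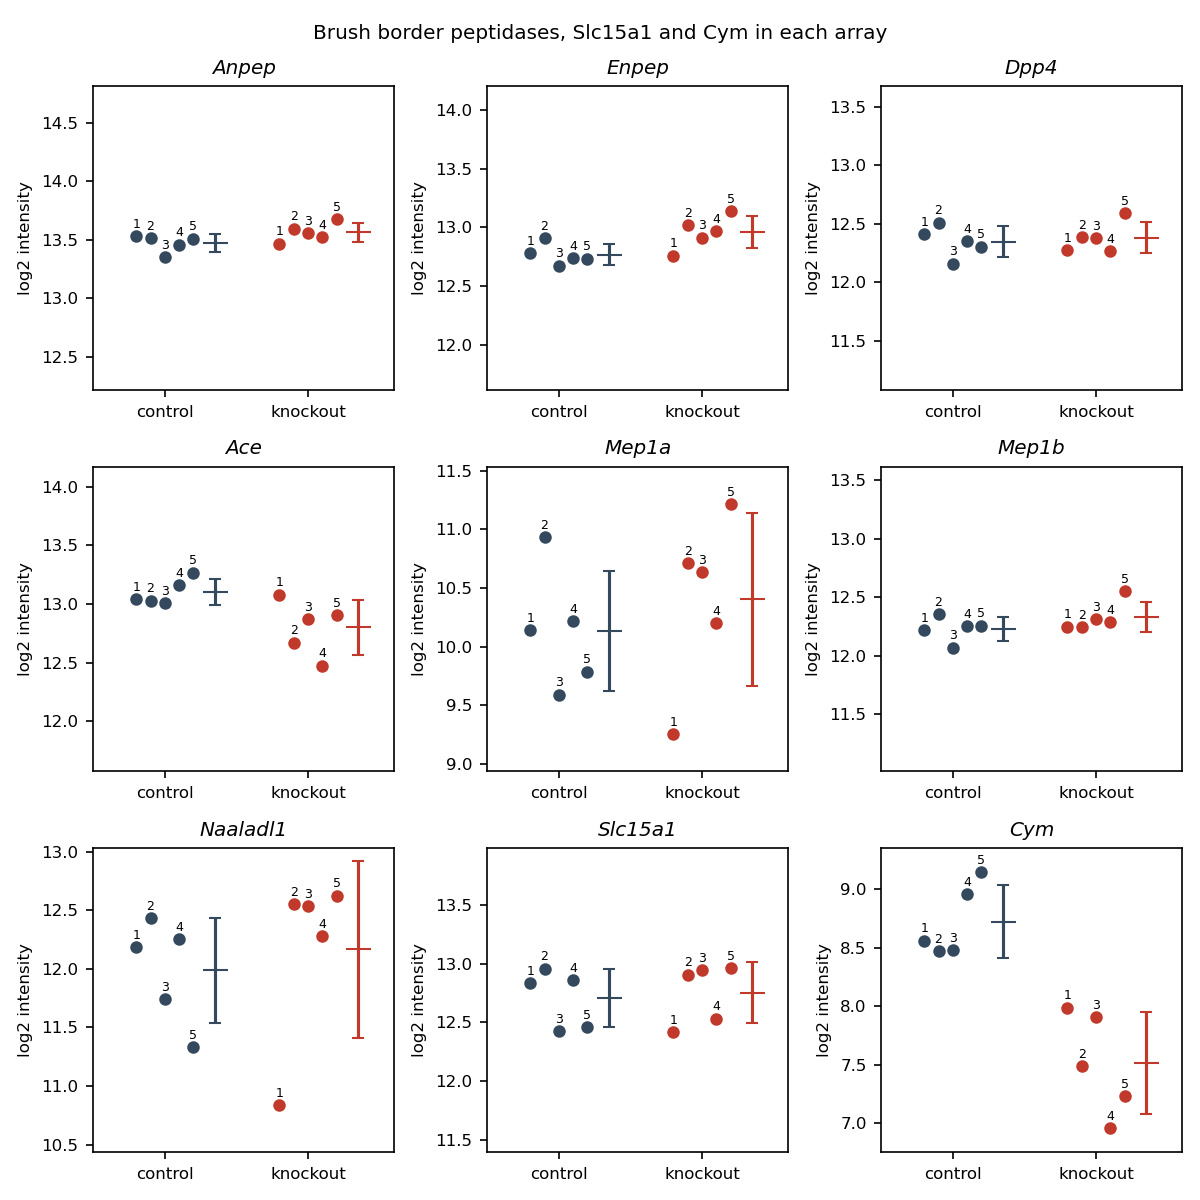
Log2 intensity of the 9 members in each array, numbered by replicate, with the mean and SD of 5 arrays beside each group; each panel spans the same 2.6 log2 units on its vertical axis. In Cym all knockout arrays lie below all control arrays (highest knockout 7.99, lowest control 8.47), while the groups overlap in the other 8 genes.

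Cym encodes chymosin, an aspartic protease best known as the milk-clotting enzyme of the suckling stomach. Its log2 intensities were 7.99, 7.49, 7.91, 6.96 and 7.23 in knockouts 1 to 5. They were 8.56, 8.47, 8.48, 8.96 and 9.15 in controls 1 to 5. All 5 knockout arrays lay below all 5 controls, with a gap of 0.48 between the highest knockout, knockout 1, and the lowest control, control 2. Groups that did not overlap, with knockout lower, were found in 1.56% of all genes. On the linear scale of the deposited intensities the knockouts ran from 124.2 to 254.0 and the controls from 354.3 to 566.3. The difference was -1.21 (SE 0.20, 95% confidence interval -1.65 to -0.76, limma adjusted p = 0.0296), a level 2.31 times lower (1.70 to 3.14), or 43.3% of that in control. The two-sided exact permutation test over the 252 assignments of the arrays gave p = 0.00794, the smallest it can give. Without knockout 1 and control 5 the difference was -1.22 (limma adjusted p = 0.0201).

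That call was close to the threshold. It ended in 7 of the 10 fits that left out 1 array, namely without knockout 2, 4 or 5 or control 1, 2, 4 or 5, where limma adjusted p ran from 0.0583 to 0.0938 and the difference from -1.27 to -1.07. In these 7 fits 11 to 59 of all genes passed, against 76 with all arrays. The call also ended with the mean of the ileum markers as a covariate, at -0.97 (SE 0.21, limma adjusted p = 0.148), a fit in which 19 of all genes passed. That mean was 0.48 to 1.00 in knockouts 2 to 5, -1.09 in knockout 1 and -0.85 to 0.15 in the controls, so it partly overlaps with genotype. With the replicate number as a block the call ended too (limma adjusted p = 0.0891). The same held with all probe sets tested (limma adjusted p = 0.0771) and with a minimum change of 1.5-fold (limma adjusted p = 1.0).

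Because chymosin is best known from the stomach, markers of the stomach and of the pancreas were read beside Cym. All 11 measured stomach markers, among them the pepsinogen genes Pga5 and Pgc and the acid pump gene Atp4a, lay between 3.70 and 5.97 on the log2 scale in all arrays. Their summed intensity was 380.6 to 414.1 in knockout and 381.5 to 424.1 in control, ranges that overlap. None of the 11 passed the test. Chia1, a chitinase, was at 0.12 (SE 0.12) and Atp4a at 0.07 (SE 0.07), and Pgc had the smallest p, with 0 of them at an unadjusted p under 0.05 (difference -0.21, SE 0.12, limma adjusted p = 0.531). The 7 measured pancreas markers, such as Cpa1, Ctrb1 and Prss2, lay between 3.45 and 6.34 with none past the test (1 at an unadjusted p under 0.05), with a sum of 239.8 to 262.9 in knockout and 226.3 to 264.8 in control. Those of smallest p were the protease genes Cela3b (0.28, SE 0.11, limma adjusted p = 0.340), Prss2 (-0.13, SE 0.11) and Ctrl (0.09, SE 0.10). The totals of both lists overlapped between the groups. Many of these values lay below the array medians of 5.52 to 5.59, and sums of such low values cannot show whether either tissue differed.

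The aminopeptidases came next in the order of digestion. Anpep encodes aminopeptidase N, which removes neutral residues from the amino end of peptides and is among the main proteins of the brush border. Its mean was 13.57 ± 0.08 over the knockouts and 13.47 ± 0.07 over the controls (SD, n = 5 each), with arrays from 13.47 to 13.68 and from 13.35 to 13.53. The difference of 0.09 (95% confidence interval -0.07 to 0.26, limma adjusted p = 0.700) has an interval from 0.950-fold to 1.20-fold.

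Enpep encodes aminopeptidase A, which takes acidic residues and also processes angiotensin. The knockout arrays 1 to 5 read 12.76, 13.02, 12.91, 12.97 and 13.14 on the log2 scale. The controls read 12.78, 12.91, 12.68, 12.74 and 12.73. Only knockout 1 lay among the lower controls, and 4 knockouts lay above the highest control, control 2. Knockout 3 did so barely, at 12.914 against 12.910. The difference was 0.19 (SE 0.09, limma unadjusted p = 0.0482, adjusted p = 0.407), and the exact permutation p, two-sided, was 0.0317. It did not pass, and 12.1% of all genes had an unadjusted p under 0.05.

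Dpp4 encodes dipeptidyl peptidase 4, which cuts dipeptides behind proline or alanine and inactivates incretin hormones. The knockouts averaged 12.38 ± 0.13 and the controls 12.35 ± 0.13 (SD, n = 5 each), and they differed by 0.03 (95% confidence interval -0.17 to 0.24, limma adjusted p = 0.933). The groups overlapped almost wholly, with control 3 the lowest array (12.16) and knockout 5 the highest (12.59).

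Ace encodes angiotensin-converting enzyme, a dipeptidyl carboxypeptidase of the brush border and of endothelium. Its log2 intensities were 13.08, 12.67, 12.87, 12.47 and 12.90 in knockouts 1 to 5, and 13.04, 13.03, 13.00, 13.16 and 13.27 in controls 1 to 5. The controls lay close together, and 4 of 5 knockouts lay below the lowest of them, knockout 1 being the exception. The difference was -0.30 (SE 0.11, 95% confidence interval -0.55 to -0.05, 1.23-fold lower), which did not pass over all genes (limma adjusted p = 0.318). The two-sided exact permutation p was 0.0317. Without knockout 1 and control 5 the difference was -0.33 (limma adjusted p = 0.251). The 7 endothelial markers, including Cdh5 (0.13, SE 0.16), Pecam1 (0.06, SE 0.15) and Tie1 (-0.05, SE 0.10), had differences from -0.05 to 0.13 with none past the test (0 at an unadjusted p under 0.05), and their summed intensity was 682.2 to 1240.2 in knockout and 751.3 to 1082.0 in control.

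The meprins are zinc endopeptidases made of an alpha chain (Mep1a) and a beta chain (Mep1b), and the beta chain holds the complex in the membrane. The alpha chain gene spread widely between arrays of the same group. Mep1a read 9.25, 10.71, 10.63, 10.20 and 11.22 in knockouts 1 to 5, and 10.14, 10.93, 9.59, 10.22 and 9.78 in controls 1 to 5. Knockout 1 was the lowest of all 10 arrays and knockout 5 the highest, so the knockouts enclosed the controls. The difference was 0.27 (SE 0.33, 95% confidence interval -0.45 to 0.99, limma adjusted p = 0.809), and without knockout 1 and control 5 it was 0.47 (limma adjusted p = 0.538). The beta chain gene was far more even. Mep1b averaged 12.33 ± 0.13 over the knockouts and 12.23 ± 0.10 over the controls (SD, n = 5 each), against SDs of 0.74 and 0.52 for Mep1a, and its difference was 0.10 (95% confidence interval -0.09 to 0.29, limma adjusted p = 0.722).

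Naaladl1 encodes a membrane peptidase of the ileal brush border in the family of glutamate carboxypeptidase II. It showed the same kind of spread as Mep1a. The knockouts 1 to 5 read 10.84, 12.55, 12.54, 12.28 and 12.63, and the controls 1 to 5 read 12.19, 12.44, 11.74, 12.25 and 11.33. The 2 lowest arrays of the series were knockout 1 and control 5. The difference over all arrays was 0.18 (SE 0.32, limma adjusted p = 0.881), and it was 0.34 (limma adjusted p = 0.382) without these 2 arrays.

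Slc15a1, the proton-coupled peptide transporter PEPT1, differed little between the groups. Its knockout values 1 to 5 were 12.42, 12.91, 12.95, 12.53 and 12.96. Its control values 1 to 5 were 12.83, 12.96, 12.42, 12.86 and 12.46. Both groups held high and low arrays, with knockouts 1 and 4 and controls 3 and 5 near 12.5 and the other 6 near 12.9. The difference was 0.05 (95% confidence interval -0.27 to 0.36, limma adjusted p = 0.940), so that the interval covers 0.830-fold to 1.28-fold.

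Other genes of peptide digestion and absorption were read from 3 lists with 35 measured genes. Of these 1 passed the test and 34 did not, beside 0.343% of all genes that passed. The lists were chosen with earlier results of these data known. Mean values in knockout were higher for 21 and lower for 14, with a median difference of 0.06. Without knockout 1 and control 5 the count was also 1, the same gene. That gene was Cpm, which encodes carboxypeptidase M, a membrane enzyme that removes basic residues from the carboxyl end. Its knockouts 1 to 5 read 6.92, 6.69, 6.77, 6.36 and 6.94, and its controls 1 to 5 read 7.70, 7.61, 7.47, 7.85 and 7.88. All knockouts lay below all controls, as in 1.56% of all genes. Cpm fell by 0.97 on the log2 scale (SE 0.12, limma adjusted p = 0.00842), or 1.95-fold. It passed without each of the 10 arrays in turn (limma adjusted p from 0.00572 to 0.0405), and with the ileum covariate it was at -0.91 (limma adjusted p = 0.0542).

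The 7 other membrane peptidases measured did not pass. Mme, neprilysin, was at -0.17 (SE 0.10) and Folh1, glutamate carboxypeptidase II, at 0.18 (SE 0.10), though Folh1 lay between 3.57 and 4.15 on the log2 scale, below the median of every array. Xpnpep2, outside the naming rule and picked after its values were seen, is the membrane aminopeptidase P, which splits bonds next to proline, and it was at -0.00 (SE 0.40). It shared the low values of knockout 1 (9.20) and control 5 (9.85), with the other arrays between 10.35 and 11.35.

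Among the 20 cytosolic peptidases 0 passed with limma (5 had an unadjusted p under 0.05), with 13 higher and 7 lower mean values and a median of 0.11. The smallest p belonged to Blmh, bleomycin hydrolase, at 0.44 (SE 0.12, limma adjusted p = 0.134), Dpp3, a dipeptidyl peptidase, at 0.29 (SE 0.09, limma adjusted p = 0.209), and Thop1, thimet oligopeptidase, at 0.38 (SE 0.14, limma adjusted p = 0.307). Blmh passed without knockout 1 (0.53, limma adjusted p = 0.0367), a fit in which 268 of all genes passed, against 76 with all arrays. In Dpp3 and Dpp9 all knockout arrays lay above all controls, against 2.77% of all genes that did not overlap in either direction. The gap between the groups was 0.05 in Dpp3 and only 0.004 in Dpp9. Dpp9, outside the naming rule and picked after its values were seen, was at 0.15 (SE 0.07, limma adjusted p = 0.445).

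The list of other peptide transporters and of the sodium and proton exchange that drives PEPT1 held 7 measured genes, and 0 passed with limma (0 at an unadjusted p under 0.05). Slc9a2, a sodium-proton exchanger, was at -0.28 (SE 0.19), Slc15a3, a lysosomal peptide transporter, at 0.09 (SE 0.15), and Slc9a3r1, a scaffold of brush border transporters, at 0.07 (SE 0.12). Slc9a3, also outside the rule, is the exchanger NHE3 that removes the protons PEPT1 brings in, and it was at -0.06 (SE 0.18, limma adjusted p = 0.934).

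**Figure D2:**
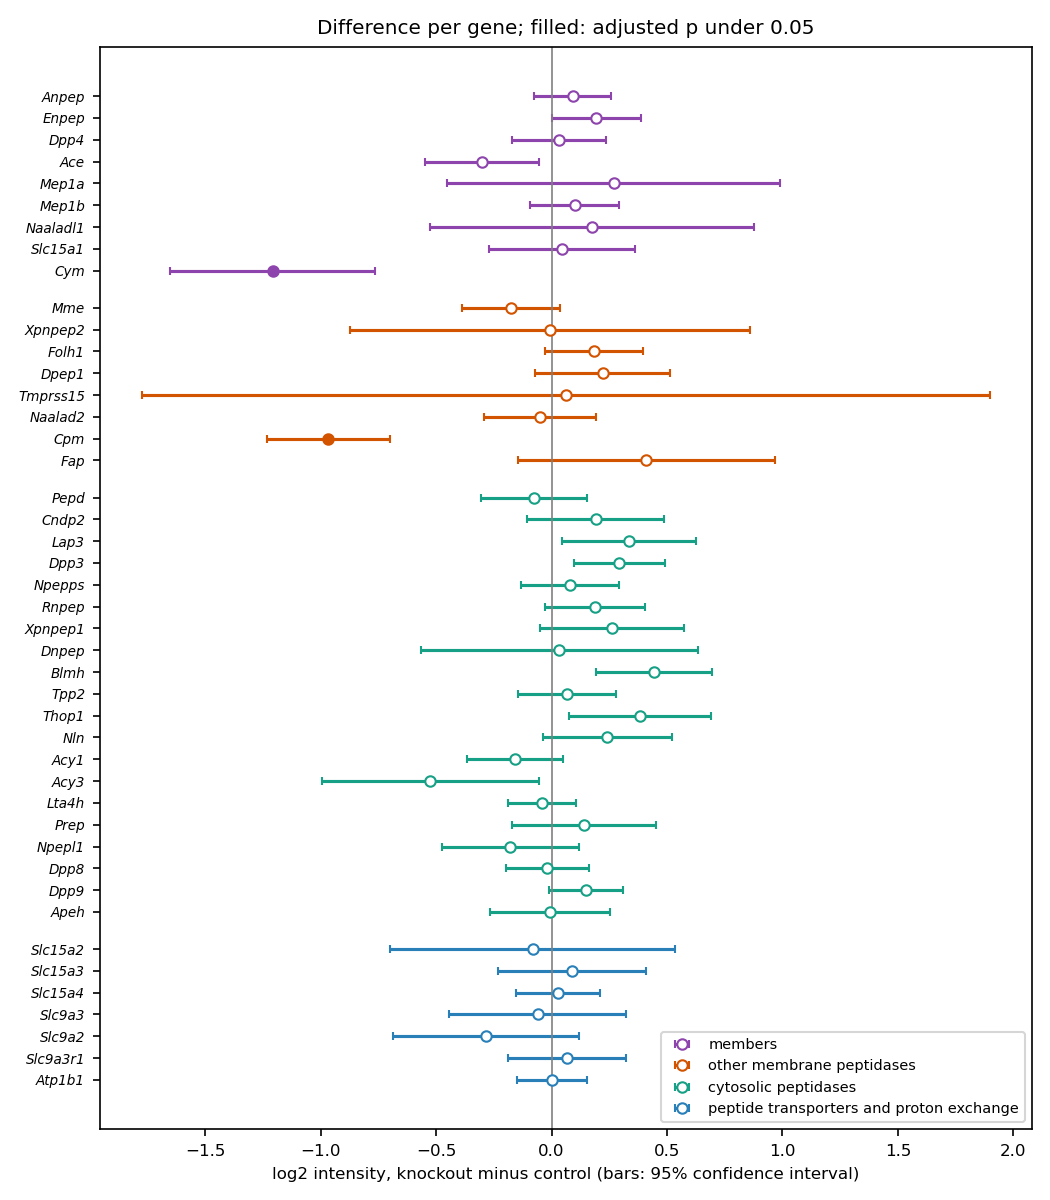
Knockout minus control on the log2 intensity scale with 95% confidence intervals for the 9 members and the 35 other genes of peptide digestion and absorption; filled points passed the limma test. Cym at -1.21 and Cpm at -0.97 are the filled points, and the intervals of Tmprss15, Xpnpep2, Mep1a and Naaladl1 are wide.

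A list of 13 genes, of the microvillus and of other parts of the epithelium, was read to see whether the brush border itself was represented alike. Of 13, 0 passed with limma (2 at an unadjusted p under 0.05), with 5 higher and 8 lower. Eps8, an actin-capping protein of microvilli, was at -0.58 (SE 0.12, limma adjusted p = 0.0703). It passed without knockout 1 (-0.64, limma adjusted p = 0.0323) and with array weights (-0.57, limma adjusted p = 0.0406). Tmigd1, an adhesion protein of enterocytes, was at 2.37 (SE 0.64, limma adjusted p = 0.147), with knockout 1 at 6.93 and the other knockouts at 9.57 to 10.85, and it passed without knockout 1 (2.99, limma adjusted p = 0.0104) and without that array and control 5 (2.81, limma adjusted p = 0.0201). With the ileum markers as a covariate Tmigd1 was at 1.04 (SE 0.23, limma adjusted p = 0.151). Of all genes, 268 passed without knockout 1, 186 without it and control 5, and 142 with array weights, against 76 in the main fit. Calls gained in these settings are thus not particular to Eps8 or Tmigd1. Plac8, also named by its p in this list, was at -0.17 (SE 0.10). Of 9 transcription factors of enterocyte genes 0 passed with limma (1 at an unadjusted p under 0.05): Gata6 was at -0.38 (SE 0.12), Cdx2 at 0.25 (SE 0.12) and Hnf4a at 0.20 (SE 0.11).

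Many of the members varied together between arrays. For this, the mean of its own group was taken from each log2 value, so that the knockout effect was removed, and the 36 pairs of members were correlated over the 10 arrays with exact permutation within the groups. Of the 36 pairs 14 had an adjusted p under 0.05 for Pearson's r, and 10 of these for Spearman's rho as well. The share among pairs of other genes was not computed, so this co-variation cannot be called particular to the members. Anpep, Dpp4, Enpep, Mep1a, Mep1b, Naaladl1 and Slc15a1 were correlated positively with one another in all of their pairs, from 0.42 to 0.93. Mep1a and Slc15a1 gave r = 0.89 and rho = 0.95 (permutation p = 2.08e-04 and 3.47e-04, adjusted 0.00750 and 0.00625). Without knockouts 1 and 5, the arrays farthest from the median of Mep1a, r was 0.89.

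Mep1a and Naaladl1 gave r = 0.90 and rho = 0.99 (permutation p = 9.03e-04 and 2.78e-04, adjusted 0.0117 and 0.00625). Without knockouts 1 and 5 r was 0.82, and without knockout 1 and control 5 it was 0.92. The relation between these genes was therefore also present among the remaining 8 arrays. Anpep and Mep1b, in contrast, gave r = 0.80 and rho = 0.77 (permutation p = 0.0187 and 0.0236, adjusted 0.0480 and 0.0708), and r was 0.06 without knockout 5 and control 3, so that relation rests on those arrays.

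Ace and Cym gave r = 0.82 and rho = 0.66 (permutation p = 0.0146 and 0.0971, adjusted 0.0437 and 0.161), with r at 0.77 without knockouts 2 and 4 and at 0.68 without knockout 1 and control 5. The rank correlation did not pass. With the other 7 members, r of Cym ran from -0.58 for Enpep to -0.14 for Slc15a1, and r of Ace from -0.55 to 0.22. Without knockout 1 and control 5 these ranges were -0.37 to 0.51 for Cym and 0.18 to 0.67 for Ace, whose r with Slc15a1 was then 0.67, beside 0.68 with Cym. Among themselves, the other 7 members then ran from 0.58 (Enpep with Slc15a1) to 0.96 (Slc15a1 with Naaladl1). Cym thus stayed below that range with each of the 7, and Ace reached into it only with Slc15a1. All of these values share the arrays and their normalization.

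**Figure D3:**
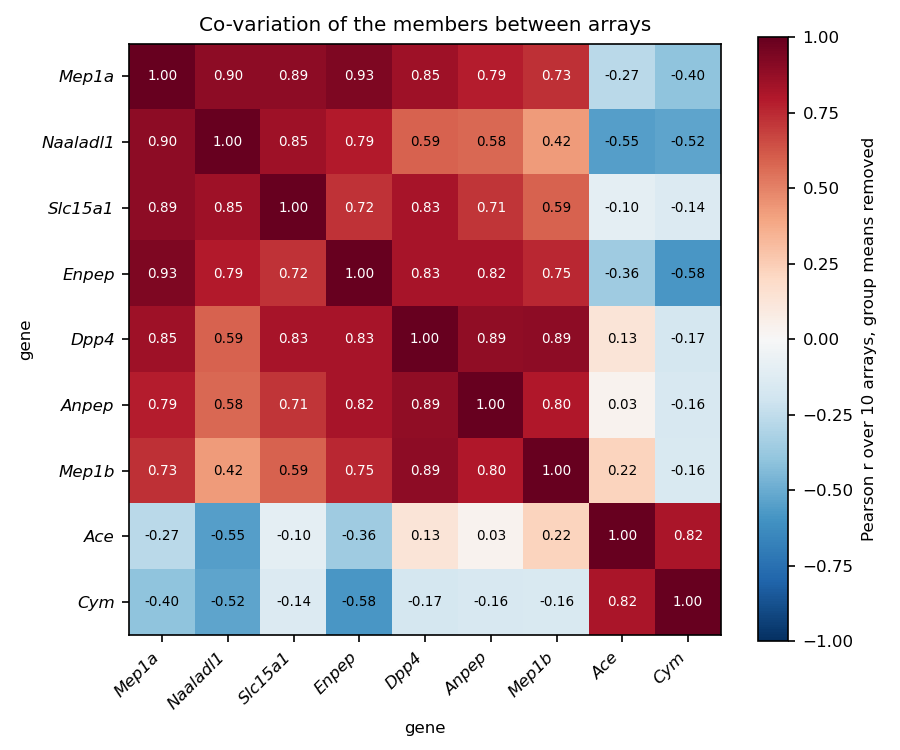
Pearson r between members over the 10 arrays after the group means were removed, from -1 (blue) to 1 (red). The 7 members from Mep1a to Mep1b are positive with one another (0.42 to 0.93), and Ace with Cym stands at 0.82; without knockout 1 and control 5, r of Ace with those 7 ran from 0.18 to 0.67.

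The genes most like Cym and Slc15a1 were found by the same measure over all genes, as a description. Nearest to Cym were Dbp, a transcription factor of the clock output (r = 0.95, rho = 0.92), Cda, cytidine deaminase (r = 0.95, rho = 0.96), Mcur1, a regulator of mitochondrial calcium uptake (r = 0.94, rho = 0.85), and Zfp872 (r = 0.93, rho = 0.94). Without knockouts 4 and 5, which were farthest from the median of Cym, r was 0.94, 0.90, 0.94 and 0.91. In the comparison of knockout with control Dbp was at -0.86 (SE 0.22, limma adjusted p = 0.125) and Zfp872 at -0.00 (SE 0.10). Nearest to Slc15a1 were S100a11-ps (r = 0.99), Serpinb1a (r = 0.99), Nt5e, the enzyme that forms adenosine outside cells (r = 0.98), and Gng12 (r = 0.98). Being the highest of 22180 values, these correlations carry no test.

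Markers of position along the gut divided the arrays in more than one way. Onecut2, a transcription factor of the proximal small intestine, was at 8.33 in knockout 1 and 5.50 to 5.86 in the other knockouts, and at 8.86 in control 5 and 6.48 to 7.66 in the other controls. Fabp6, the ileal bile acid binding protein, was at 4.31 in knockout 1. Knockouts 2 to 5 lay between 8.59 and 11.20, and the controls between 4.36 and 5.38, with control 5 inside that range at 4.81. In Fabp6 knockouts 2 to 5 were thus the arrays that stood apart, and their means over the ileum list (0.48 to 1.00) were also above those of all controls (-0.85 to 0.15). Of 10 measured ileum markers 8 had higher values in knockout and 0 passed with limma (6 at an unadjusted p under 0.05). Fgf15, the ileal hormone of bile acid feedback, was at 1.16 (SE 0.26, limma adjusted p = 0.0867), Cubn, the receptor for vitamin B12 with intrinsic factor, at -0.84 (SE 0.19, limma adjusted p = 0.0881), and Fabp6 at 3.89 (SE 0.97, limma adjusted p = 0.120). Their summed intensity was 10321.2 to 19686.0 in knockout and 11948.5 to 16479.1 in control. Of 11 proximal markers 8 had lower values, 1 passed (Gip, an incretin gene, -0.76, SE 0.11, limma adjusted p = 0.0191), Lct, lactase, was at -0.72 (SE 0.15, limma adjusted p = 0.0640) and Cck, the cholecystokinin gene, at -0.61 (SE 0.22, limma adjusted p = 0.283), and the sums were 27192.0 to 33101.5 and 32292.7 to 36545.2. The part of position in the values of Mep1a, Naaladl1, Cym and the other members was not tested. With the mean of the ileum markers as a covariate, Mep1a was at -0.38, Naaladl1 at -0.49, Slc15a1 at -0.18 and Dpp4 at -0.057, each of opposite sign to its value without it, and none of the 9 members passed. Because that mean was itself higher in knockouts 2 to 5 than in all controls, genotype and position cannot be told apart in this fit.

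**Figure D4:**
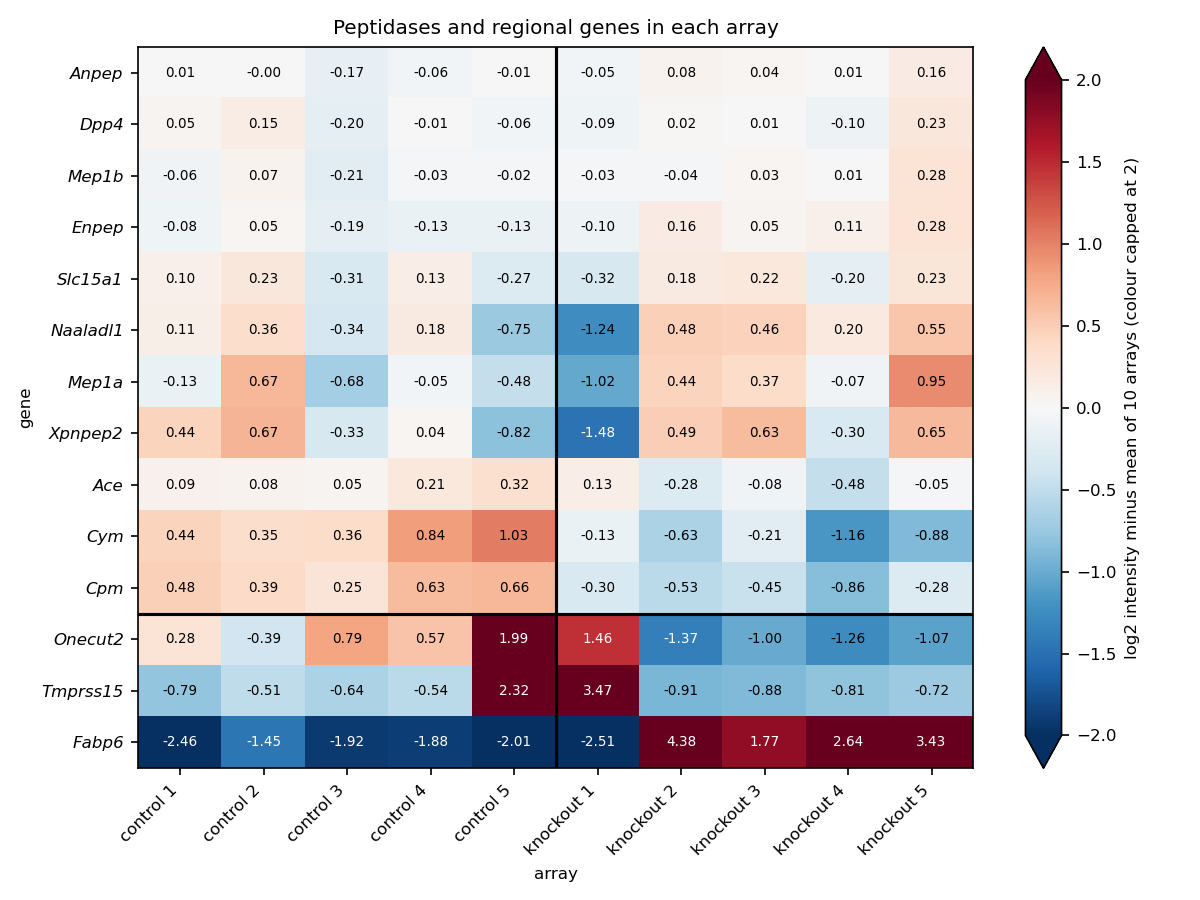
Log2 intensity minus the mean of the 10 arrays for 11 peptidase and transporter genes (above the line) and for 3 regional genes (below it), picked after their values were seen. Knockout 1 and control 5 are low in Naaladl1 (-1.24 and -0.75), Mep1a (-1.02 and -0.48) and Xpnpep2 (-1.48 and -0.82) and high in Onecut2 and Tmprss15, while Cym and Cpm are negative in all 5 knockouts and positive in all 5 controls.

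Other cell types were read from marker lists. Proliferation markers had higher values in 6 of 7 cases, with Birc5 at 0.86 (SE 0.19), Aurka at 0.64 (SE 0.19) and Plk1 at 0.88 (SE 0.27). Immune markers had lower values in 6 of 7 cases, with the T cell genes Cd8a at -0.79 (SE 0.23), Cd3e at -0.76 (SE 0.26) and Cd3g at -0.74 (SE 0.29). Goblet cell markers had lower values in 5 of 7 cases, with Fcgbp at -0.45 (SE 0.10), Tff3 at -0.38 (SE 0.10) and Muc2 at -0.26 (SE 0.10). The counts of 2 further lists each turned on a single array. Paneth markers had higher values in 4 of 6 cases (Mmp7 0.56, SE 0.50; Defa26 -0.35, SE 0.36; Itln1 -0.30, SE 0.47), but the list mean of control 5 was -2.04 against 0.15 to 0.91 in the other controls, and without it 1 of 6 was higher and 5 lower. Smooth muscle markers had lower values in 4 of 7 cases (Des -0.29, SE 0.28; Tagln -0.16, SE 0.18; Smtn 0.08, SE 0.11), but the list mean of control 4 was 1.17 against -0.44 to -0.049 in the other controls, and without it 5 of 7 were higher and 2 lower. In these 5 lists 0 genes passed with limma (11 at an unadjusted p under 0.05), and their part in the result was not tested.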

How the data were processed

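RNA from jejunum was hybridised to 10 arrays after Trizol extraction, column clean-up and labelling of 400 ng with the WT Plus kit, per the labels' protocols. The submitters' processing notes name RMA and Affymetrix Expression Console, version 1.4.1.46. The authors deposited linear, not logged, intensities with 1 decimal, from 1.8 to 15278.7. RMA makes arrays alike in distribution, so a shift shared by most genes is not visible. Here log2 was taken, with no pseudocount and no filter. Of 41345 probe sets, 23521 had 1 symbol in GEO's platform annotation, 1814 several and 16010 none; per gene the probe set with the highest mean was kept. Levels are compared within a gene only. Groups come from the titles, which do not state that each array is a separate animal, so p-values measure the spread between samples, which may be technical, and the number of arrays limits precision. limma 3.58.1 (R 4.3.3, lmFit and eBayes, all 10 arrays) was adjusted by Benjamini-Hochberg over 22180 genes and tested on simulated data. The members and lists were chosen with earlier results of these data known. Genes named were the members, Pcyt1a, in each of 15 lists the called genes and the 3 of smallest p, and the 4 genes most like Cym and Slc15a1; others are marked, apart from Vil1, Tmprss15, Onecut2, Pga5, Cpa1 and Ctrb1. Marker counts without control 4 or control 5 were chosen after seeing the data. Listed genes without a probe set of 1 symbol are not analysed here. Alternatives comprised normalization, dim genes, probe set choice, moderation, weights, block, covariate, thresholds and left-out arrays. No gene coordinates are given, since the array build is not given in the sources used here; promoter coordinates are those of the sequence table.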

Additional observations from a re-analysis of the deposited data

Results flagged for a closer look

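In 34 genes, checked in both groups of 5, 8 values lay far from the rest of their group by Dixon's criterion. About 1 in 20 groups would hold such a value by chance. Tmprss15, Onecut2 and Xpnpep2 were added after their values were seen, so the count cannot be set against that rate. Among the members these were Naaladl1 in knockout 1, at 10.84 where the other knockouts lay at 12.28 to 12.63, and Mep1b in knockout 5, at 12.55 against 12.24 to 12.31. Knockout 1 and control 5 stood out in Tmprss15 (8.66 against 4.28 to 4.47 in the other knockouts, and 7.51 against 4.40 to 4.67 in the other controls). Knockout 1 also did in Onecut2 (8.33 against 5.50 to 5.86) and control 5 in Mme (13.11 against 12.80 to 12.87). Control 3 was low in Slc9a2 (9.08 against 9.61 to 9.79) and in Slc9a3r1 (11.59 against 11.84 to 11.95).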

How the results depend on the processing

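The direction of Cym and Cpm was kept under all 22 alternatives, but groups that do not overlap cannot turn when arrays are left out. Cym did not pass with the replicate block (-1.21, limma adjusted p = 0.0891), with all probe sets tested (-1.21, 0.0771), with a minimum change of 1.5-fold (-1.21, 1.0) or with the ileum covariate (-0.97, 0.148), and the number of members called was then 0. With 1 array left out its difference ran from -1.33 to -1.07 and the number called from 0 to 1. The number of other peptide digestion genes called was 0 with the minimum change and with the ileum covariate, and 1 to 2 with 1 array left out. The replicate block took the number of all genes called from 76 to 27. The titles do not state that replicate numbers pair the samples. Correlations of deviations of same-numbered arrays ran from -0.135 to 0.125, which cannot exclude a pairing. Signs turned for values that did not pass. With the ileum covariate Dpp4 was at -0.057, Mep1a at -0.38, Naaladl1 at -0.49, Slc15a1 at -0.18 and Slc9a3r1 at -0.032. With 1 array left out, Dpp4 ran from -0.022 to 0.072, Slc15a1 from -0.026 to 0.13, Slc15a3 from -0.018 to 0.16 and Slc9a3r1 from -0.017 to 0.14. Without knockout 1 and control 5 together Slc15a3 was at -0.10. The causes were not tested. Pcyt1a passed under all 22 alternatives.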
